A study of Mus musculus with 6 samples.

Results

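The genes described here are the receptors of the AMH, BMP and TGF-beta branches of the TGF-beta superfamily, chosen by name: 10 of the 37991 genes counted. They are the type II receptors Amhr2, Bmpr2, Acvr2a, Acvr2b and Tgfbr2 and the type I receptors Acvr1, Bmpr1a, Bmpr1b, Acvrl1 and Tgfbr1. RNA was sequenced from Müllerian duct mesenchyme of mouse embryos at embryonic day 14.5, in 3 female and 3 male libraries, each from a pool of 2 to 7 embryos. Every embryo of both sexes had the genotype Amhr2Cre/+, R26R YFP/+ on a mixed C57BL/6J and 129/SvEv background, and no agent was given. The sorted cells were YFP-positive, which marks cells with a present or past activity of Cre driven from the Amhr2 locus. Amhr2 therefore took part in choosing the cells, and the same locus carries the Cre allele in all 6 pools. The comparison asked how receptor transcripts differed between the male duct, which meets AMH from the testis and regresses, and the female duct, which persists.

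A ligand of this family binds a complex of type I and type II receptors, which are both serine-threonine kinases. The type II receptor phosphorylates the type I receptor, which then phosphorylates SMAD proteins: SMAD1, SMAD5 and SMAD9 in the AMH and BMP branch, SMAD2 and SMAD3 in the TGF-beta and activin branch. Amhr2 is the dedicated type II receptor of AMH and acts in the mesenchyme around the duct, while its type I partners Acvr1, Bmpr1a and Bmpr1b are shared with the BMPs.

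Promoter windows of 300 bases, from 250 before to 50 after the annotated start, were taken from RefSeq (GRCm38.p6) and held 9 of the 10 genes. Those of Amhr2, Acvr1 and Bmpr1b are shown because Amhr2 marks the sorted cells and the other two are the type I genes whose libraries separated by sex. Capitals mark CAAGGTCA, the letters bound by NR5A nuclear receptors, in Amhr2 (chr15:102445117-102445416, plus strand) and the GC box GGGCGG, read on either strand, in Acvr1 (chr2:58566779-58567078, minus strand). Neither string is in the Bmpr1b window (chr3:141982215-141982514, minus strand).
Amhr2: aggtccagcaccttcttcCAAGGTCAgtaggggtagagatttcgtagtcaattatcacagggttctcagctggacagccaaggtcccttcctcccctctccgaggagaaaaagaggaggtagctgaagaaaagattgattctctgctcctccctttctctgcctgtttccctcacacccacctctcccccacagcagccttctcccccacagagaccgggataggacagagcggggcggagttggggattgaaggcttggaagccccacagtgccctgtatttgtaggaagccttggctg
Acvr1: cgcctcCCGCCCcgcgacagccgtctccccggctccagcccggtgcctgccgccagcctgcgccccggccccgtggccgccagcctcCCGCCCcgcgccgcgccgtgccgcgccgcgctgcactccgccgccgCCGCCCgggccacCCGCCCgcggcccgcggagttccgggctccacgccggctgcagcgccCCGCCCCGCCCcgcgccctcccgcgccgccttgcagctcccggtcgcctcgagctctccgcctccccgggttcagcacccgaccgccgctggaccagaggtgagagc
Bmpr1b: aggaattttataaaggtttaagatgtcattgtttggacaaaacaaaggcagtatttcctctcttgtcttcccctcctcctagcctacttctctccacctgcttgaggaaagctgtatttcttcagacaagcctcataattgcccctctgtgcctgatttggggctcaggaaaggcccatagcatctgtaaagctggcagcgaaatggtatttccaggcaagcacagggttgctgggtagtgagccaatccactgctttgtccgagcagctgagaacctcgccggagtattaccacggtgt
The 3 windows differ in make-up. Amhr2 and this Bmpr1b window held 5 CpG dinucleotides each and Acvr1 held 51, against a median of 7 over 32851 promoter windows. Both other annotated Bmpr1b windows held 6. The further members were richer in CpG, with 15 in Tgfbr2, 23 in Bmpr2, 27 in Acvr2b, 34 in the upstream Tgfbr1 window, 48 in Bmpr1a and 54 in Acvr2a, while a second Tgfbr1 window held 3. Counting both strands, CAAGGTCA was found in 1.56% of all windows and, among the members, in Amhr2 alone, starting at base -232 from the annotated start. The GC box was found in 35.7% of all windows. It was found once in Amhr2, 6 times in Acvr1, of which the last 2 share a letter, and not in the 3 Bmpr1b windows. Further members also held it, with 4 in Bmpr1a, 3 each in Acvr2a and Acvr2b, 2 in the upstream Tgfbr1 window and 1 in Bmpr2. Tgfbr2 and the second Tgfbr1 window held none. The letters GGCGCC, which SMAD proteins of the BMP branch can bind, were found in 11.9% of all windows and in Bmpr1a, Bmpr2 and the upstream Tgfbr1 window.

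Libraries held 22511872 to 24749859 counts in genes, so that the lowest member count, 68 for Bmpr1b in male replicate 2, was the one most exposed to counting error. Xist and the Y-linked genes Ddx3y, Kdm5d and Eif2s3y went with the labelled sex in all 6 libraries. The 10 mesenchyme markers, led by collagen genes, summed to 5848 to 8653 CPM (each count divided by its TMM-scaled library total, in parts per 10 to the power of 6) in females and 8119 to 9157 CPM in males. Both replicate 1 libraries stood apart, with 17.5% and 18.2% of uniquely placed counts outside genes, against 3.53% to 8.65% in the other 4 libraries. Markers of endothelium summed to 73.8 to 107.6 CPM in females and 172.3 to 338.0 CPM in males, most of it Kdr. Markers of Sertoli cells, the AMH source in the testis, summed to 35.5 to 109.6 and 81.6 to 158.5 CPM. The sums were 288.8 to 640.2 and 179.3 to 419.1 CPM for duct epithelium, of which Pax2, Lhx1 and Wnt9b had at most 35 counts per sex, and 588.5 to 801.0 and 516.4 to 622.1 CPM for mesothelium. They were 120.6 to 211.4 and 280.9 to 554.3 CPM for pregranulosa cells, most of it Wnt4. Of the 7 pregranulosa genes, Wnt4 and Bmp2 had higher means in males and the other 5 lower ones. Foxl2, of these 5, averaged 9.54 CPM in females and 1.88 CPM in males. The sums were 5.40 to 8.89 and 2.42 to 7.00 CPM for fetal Leydig cells, and 10.9 to 13.1 and 14.1 to 19.9 CPM for blood cells. The part of these cell types in the results was not tested.

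The 3 largest differences between the sexes were in type I receptors. Acvr1 was 2.47 times as high in males, Acvrl1 2.94 times as high, and Bmpr1b 4.06 times as high in females, while Bmpr1a and Tgfbr1 had log2 fold changes near 0. None of the 10 members passed an adjusted p of 0.05 in edgeR's quasi-likelihood test over all 15227 genes tested, where 1.23% of genes passed. At an unadjusted p under 0.05 there were 3 members, Acvr1, Bmpr1b and Acvrl1, against 9.18% of all genes. Values of the sexes were fully separate for 2 members, Acvr1 and Bmpr1b, and for 13.7% of all genes. In bulk RNA of sorted cells, fewer cells of a type and less RNA per cell cannot be told apart.

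**Figure D1:**
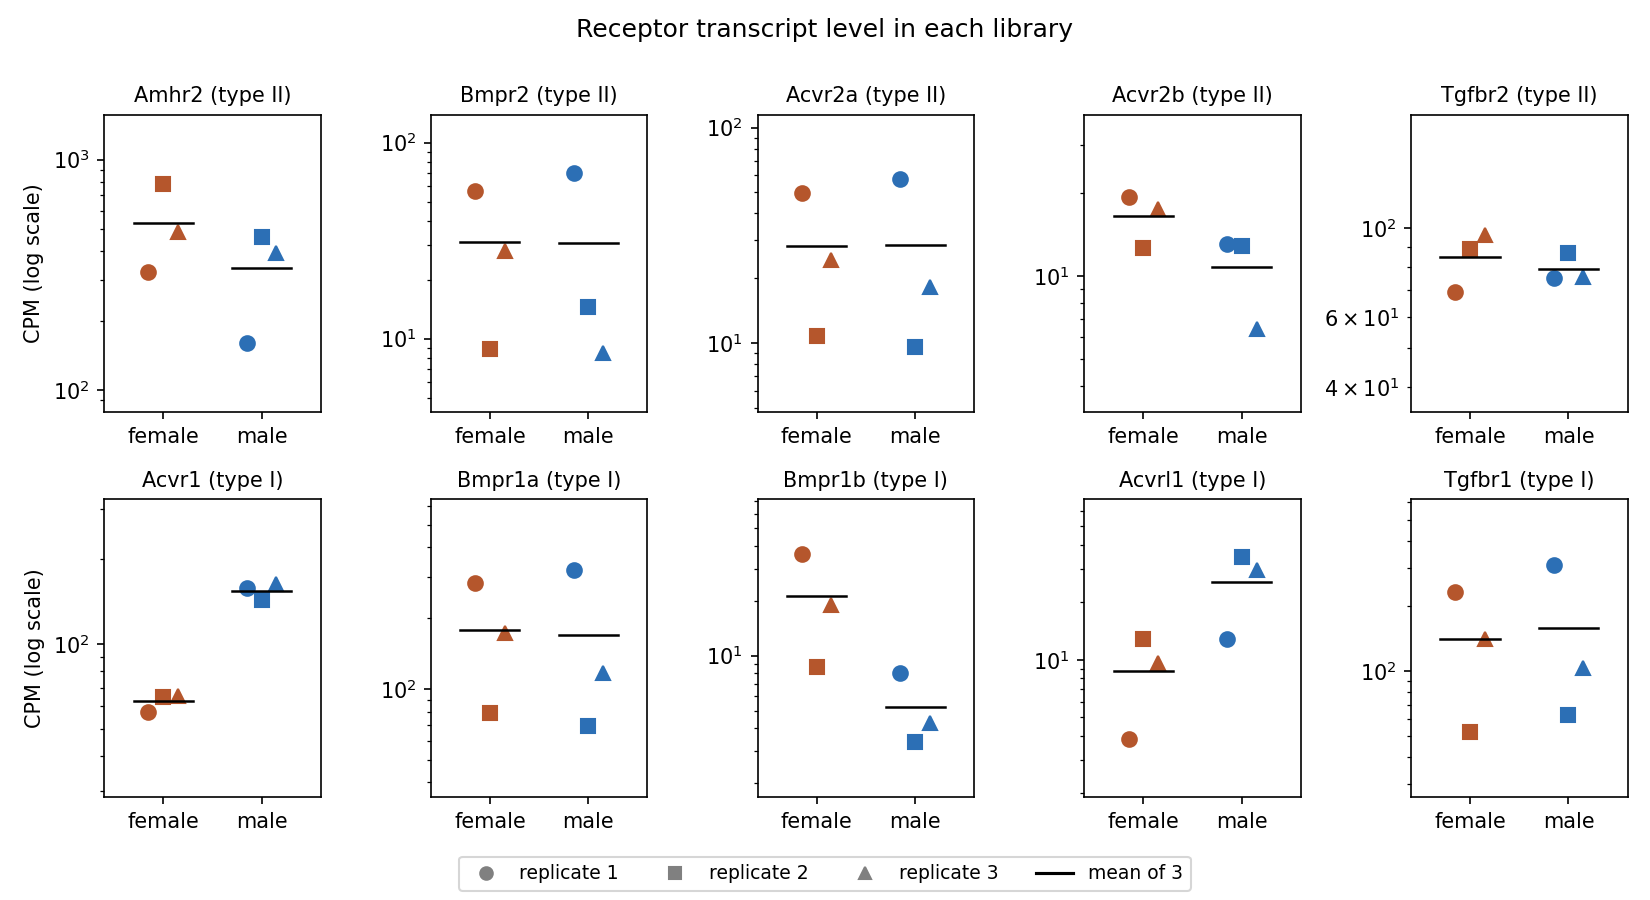
CPM of each receptor in each library on log axes, by sex; symbols stand for replicate numbers and bars for the mean of 3 libraries. Acvr1 and Bmpr1b are the panels in which no male point lies within the female range.

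Acvr1, the type I receptor also known for its part in bone formation, stood at 57.3, 64.8 and 65.5 CPM in females and at 157.7, 143.0 and 162.8 CPM in males, replicates 1 to 3 in order. The sexes were well apart and the libraries of each sex were close to one another: the highest was 1.14 times the lowest in both. The log2 fold change, male over female, was 1.30 (SE 0.29, 95% interval 0.62 to 1.99, edgeR adjusted p = 0.107). DESeq2, which called 5.06% of all genes, put it past the threshold (log2 fold change 1.33, adjusted p = 0.000304). With any 1 library left out the edgeR value was 1.25 to 1.35, and none of the 6 fits passed (edgeR adjusted p 0.162 to 0.590).

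Bmpr1b, a type I receptor with a restricted pattern in skeletal and reproductive tissue, stood at 36.0, 8.65 and 18.9 CPM in females and at 7.99, 3.36 and 4.30 CPM in males, replicates 1 to 3 in order. All male libraries were below all female ones, but the margin was small: the lowest female value, in replicate 2, was just above the highest male value, in replicate 1. The log2 fold change was -2.02 (SE 0.63, 95% interval -3.51 to -0.53, edgeR adjusted p = 0.281). DESeq2 gave -2.01 and put it past the threshold (adjusted p = 0.0327). Leaving out 1 library gave edgeR values of -2.47 (without male replicate 1) to -1.40 (without female replicate 1), and none of the 6 passed.

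Acvrl1, a type I receptor best known from blood vessel endothelium, stood at 3.82, 12.8 and 9.56 CPM in females and 12.8, 34.7 and 29.6 CPM in males, replicates 1 to 3 in order. The lowest male library and the highest female library nearly met, and the groups overlapped. The log2 fold change was 1.56 (SE 0.59, 95% interval 0.16 to 2.96, edgeR adjusted p = 0.451), and 1.198 to 1.95 with any 1 library left out. Kdr, a receptor of endothelium and some mesenchyme, also had the higher mean in males, at 66.2 ± 23.4 CPM in females and 207.6 ± 98.3 CPM in males (SD, n = 3 each). Within each sex Kdr took the opposite order to Acvrl1, with replicate 1 highest and replicate 2 lowest. Egfl7 and Pecam1, also on the endothelium list, took the order of Acvrl1 in both sexes. Egfl7 stood at 3.09, 11.9 and 5.28 CPM in females and 4.74, 24.1 and 14.4 CPM in males. The other tested markers of the list took neither order in both sexes. The endothelial junction genes Pecam1 and Cdh5 stood below 2 CPM on average in both sexes, and Eng, the co-receptor that acts with Acvrl1, stood at 87.1 ± 36.96 and 154.9 ± 65.3 CPM. Of the 10 endothelium markers tested none passed (edgeR), and Erg came closest (log2 fold change -2.52, adjusted p = 0.107).

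Bmpr1a, the most widely expressed BMP type I receptor, stood at 283.0, 78.8 and 172.8 CPM in females and 320.9, 69.4 and 117.2 CPM in males, replicates 1 to 3 in order. Tgfbr1, the type I receptor of TGF-beta, followed the same order, at 230.8, 52.6 and 140.2 CPM in females and 310.1, 62.5 and 103.1 CPM in males. In both genes replicate 1 was high and replicate 2 low in each sex, and the ranges of the sexes overlapped almost entirely. The log2 fold changes were -0.08 for Bmpr1a (95% interval -1.74 to 1.59) and 0.17 for Tgfbr1 (-1.63 to 1.97), so differences of more than 2-fold either way remained within the error.

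Among type II receptors, Amhr2 stood at 324.0, 784.1 and 482.8 CPM in females and 160.1, 461.9 and 394.5 CPM in males, replicates 1 to 3 in order. Male replicate 1 was the lowest library, and the other male libraries lay within the female range. The log2 fold change was -0.65 (SE 0.53, 95% interval -1.92 to 0.63, edgeR adjusted p = 0.99997). It moved to -0.24 without female replicate 2 and to -0.31 without male replicate 1, and to -0.94 without male replicate 2. How much RNA from the Cre allele is counted as Amhr2 was not stated in the sources used here.

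The shared type II receptors showed no separation by sex. Acvr2b, an activin and BMP receptor, stood at 19.3, 12.6 and 17.5 CPM in females and 13.0, 12.9 and 6.40 CPM in males, with a log2 fold change of -0.61 (SE 0.41, 95% interval -1.57 to 0.35). Tgfbr2, which binds TGF-beta first, was among the steadiest members, at 69.2, 88.8 and 96.5 CPM in females and 74.96, 87.0 and 75.5 CPM in males, and its log2 fold change was -0.10 (SE 0.30, 95% interval -0.82 to 0.62). Bmpr2, the main BMP type II receptor, ranged from 8.90 to 56.7 CPM in females and 8.43 to 69.6 CPM in males, and Acvr2a from 10.8 to 49.6 and 9.54 to 57.6 CPM. Acvr2a shares 446 of 5686 exon bases with Orc4 on the opposite strand, and reads there cannot be told apart without strand. In Bmpr2 and Acvr2a the spread within a sex, up to 8.26-fold in male Bmpr2, left the sex difference unresolved, with 95% intervals of -2.28 to 2.25 and -1.90 to 1.93 on the log2 scale.

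The spread between libraries of one sex followed the base composition of the receptor transcript. Bmpr1a, Bmpr1b, Bmpr2, Acvr2a and Tgfbr1, whose longest reference transcripts have a GC content of 39.9% to 42.2%, were higher in replicate 1 than in replicate 2 in both sexes, by 1.23 to 2.66 on the log2 scale. Amhr2 (58.8%) and Acvrl1 (56.6%) were lower in replicate 1, with differences of -1.73 to -1.27. Acvr1 (48.7%) and Tgfbr2 (49.6%) differed by at most 0.36 either way, and Acvr2b (54.4%) by 0.61 in females and 0.02 in male libraries. Over the 10 members GC content and this difference had a Pearson r of -0.92 in females and -0.96 in male libraries. This is a description, since the members share the same 2 libraries per sex and transcripts low in GC were also long, each of them at least 5349 bases. Among the members Acvr1 and Tgfbr2 had the smallest standard errors of the sex difference, 0.29 and 0.30, and Bmpr2 the largest, 0.95.

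**Figure D2:**
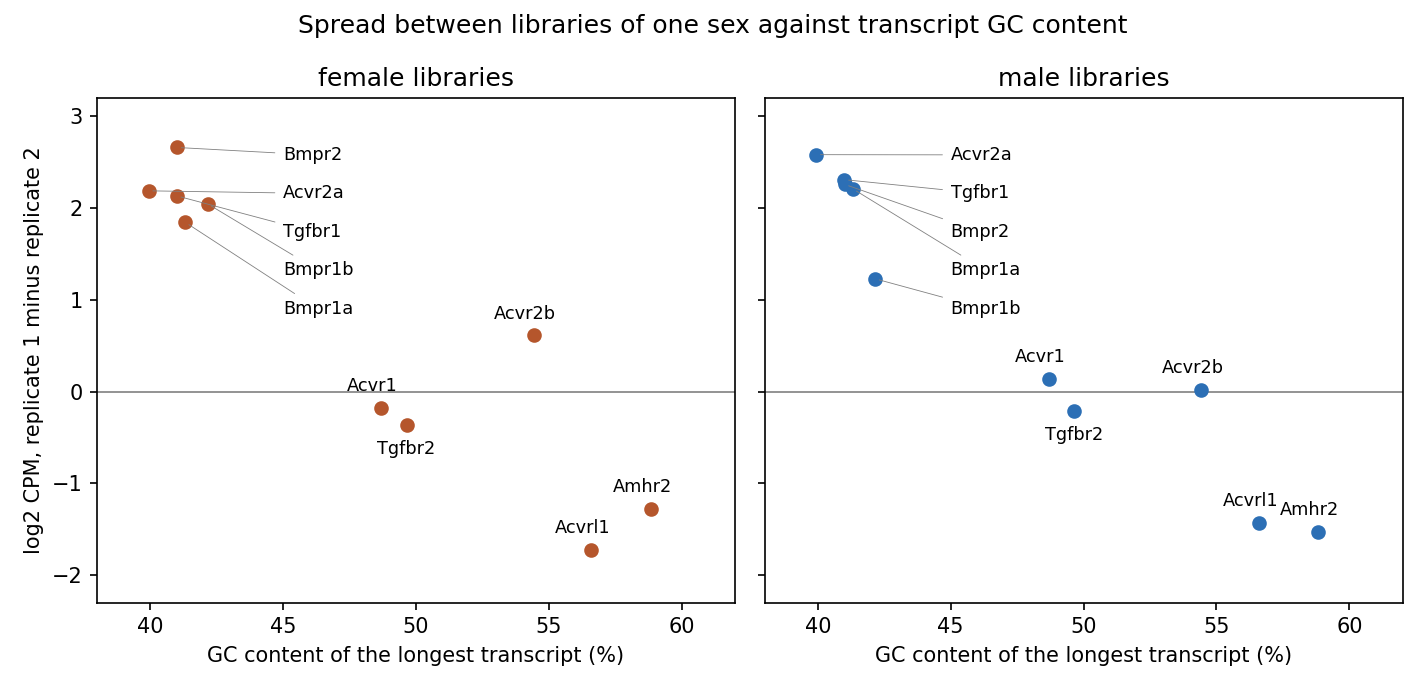
Difference in log2 CPM between replicate 1 and replicate 2 of one sex (vertical) against GC content of the longest transcript (horizontal), 1 point per receptor. The members with 39.9% to 42.2% GC lie above 0 and Amhr2 and Acvrl1 below 0 in both panels.

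An offset for transcript GC content and length, fitted to each library over all tested genes, brought 4 of the 10 members past the threshold in the same edgeR test, against 5.94% of all genes (3.02% higher and 2.92% lower in males). Acvr1 (log2 fold change 1.35, SE 0.17, adjusted p = 0.00607) and Acvrl1 (1.41, SE 0.29, adjusted p = 0.0369) rose in males by this fit. Bmpr1b (-1.64, SE 0.24, adjusted p = 0.0101) and Amhr2 (-0.97, SE 0.18, adjusted p = 0.0256) fell. With the offset Amhr2 stood at 560.6, 538.3 and 543.2 CPM in females and 257.3, 284.0 and 299.3 CPM in males, replicates 1 to 3 in order, so that libraries of a sex lay close together and the sexes apart. Bmpr1a stood at 134.6, 149.5 and 145.1 CPM in females and 155.3, 140.6 and 158.4 CPM in males, still overlapping, with a log2 fold change of 0.08 (SE 0.17). Tgfbr1 did not overlap, at 100.2 to 118.6 CPM in females and 127.1 to 149.4 CPM in males, yet missed the threshold (0.34, adjusted p = 0.437). Libraries of the sexes did not overlap for 5 members with the offset, and for 22.8% of all genes. For Acvr2b and Tgfbr2 the offset widened the spread, with standard errors of 0.52 and 0.37, and neither passed.

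**Figure D3:**
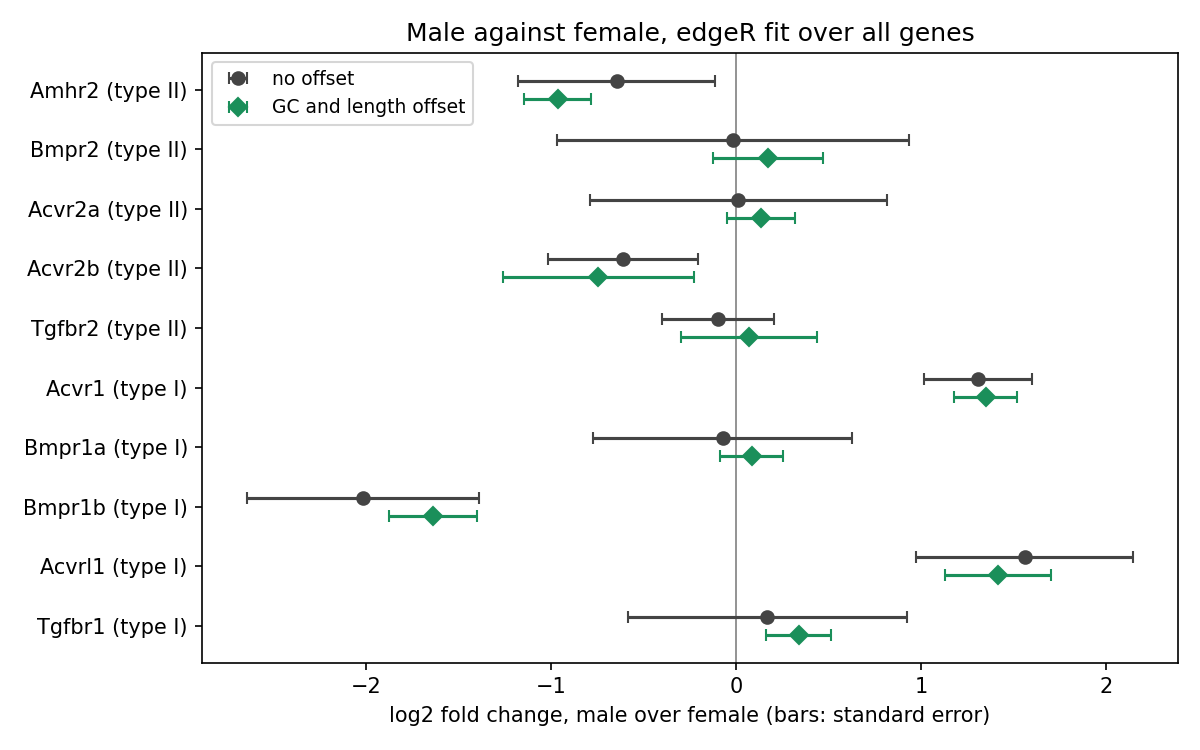
log2 fold change, male over female, of each receptor from edgeR without (circles) and with (diamonds) the GC and length offset; bars are 1 standard error. Acvr1, Acvrl1 and Bmpr1b lie away from 0 in both fits, while the bars of Amhr2 are much shorter with the offset.

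Per kilobase of the longest transcript, Amhr2 was the most abundant receptor RNA in 6 of 6 libraries, at 273.7 ± 120.6 CPM per kb in females and 174.8 ± 81.7 CPM per kb in males (SD, n = 3 each). In female libraries Bmpr1a (29.9 ± 17.2), Tgfbr1 (24.5 ± 15.5) and Acvr1 (19.0 ± 1.38) came next on average, with overlapping spread over libraries. Bmpr1a ranked above Tgfbr1 in 6 of 6 libraries, with nearly equal values in male replicate 1. Tgfbr2 (10.5 ± 1.74) was followed by Acvr2b, Acvr2a, Bmpr1b, Bmpr2 and Acvrl1, at 5.18 down to 2.40 CPM per kb, again with overlapping spread. In male libraries Acvr1 came second on average, at 46.9 ± 3.13 CPM per kb, before Bmpr1a (28.4 ± 22.4), Tgfbr1 (27.6 ± 23.1) and Tgfbr2 (9.78 ± 0.835). By rank Acvr1 was second in male replicates 2 and 3 and in female replicate 2 and at rank 4 in the other libraries. Acvrl1, at 7.06 ± 3.15 CPM per kb, stood beside Acvr2a and Acvr2b in male, and Bmpr1b was last, at 0.975 ± 0.458. The second place of male Acvr1 depends on the length used. With mean transcript lengths, male Acvr1 stood at 63.8, 57.8 and 65.8 CPM per kb, replicates 1 to 3 in order. Bmpr1a then stood at 138.2, 29.9 and 50.5 and Tgfbr1 at 123.75, 24.9 and 41.2, and Acvr1 was not second on average. Amhr2 made up 74.1% to 95.8% of summed type II receptor RNA per kilobase of the longest transcript over the 6 libraries, without the GC and length offset. The share was lowest in replicate 1 of each sex, at 85.8% in females and 74.1% in males. The cells had been sorted through the Amhr2 locus, so a high level of Amhr2 is partly built into their choice.

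The 3 type I receptors that AMH and BMPs share differed in their make-up between the sexes. Acvr1 made up 24.3%, 57.0% and 37.9% of their summed CPM per kb in females and 46.4%, 78.0% and 70.7% in males, replicates 1 to 3 in order. The ranges overlapped through female replicate 2 and male replicate 1, although in each sex replicate 1 was lowest and replicate 2 highest. Bmpr1b made up 4.69% to 9.39% in females and 1.13% to 1.45% in male libraries, with no overlap. With the GC and length offset Acvr1 made up 39.3% to 41.6% in females and 63.1% to 65.9% in male libraries, Bmpr1a 52.0% to 52.6% and 32.4% to 35.8%, and Bmpr1b 5.94% to 8.15% and 1.09% to 1.69%. These shares are given without a test, since the genes were chosen with earlier results of these data known. All of them use the longest transcript, and their level depends on that length. With mean lengths and no offset, Acvr1 stood at 26.2 and Bmpr1a at 33.9 CPM per kb in female replicate 2. By the longest transcript Acvr1 was the higher there. In male replicates 2 and 3 Acvr1 was above Bmpr1a by either length.

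**Figure D4:**
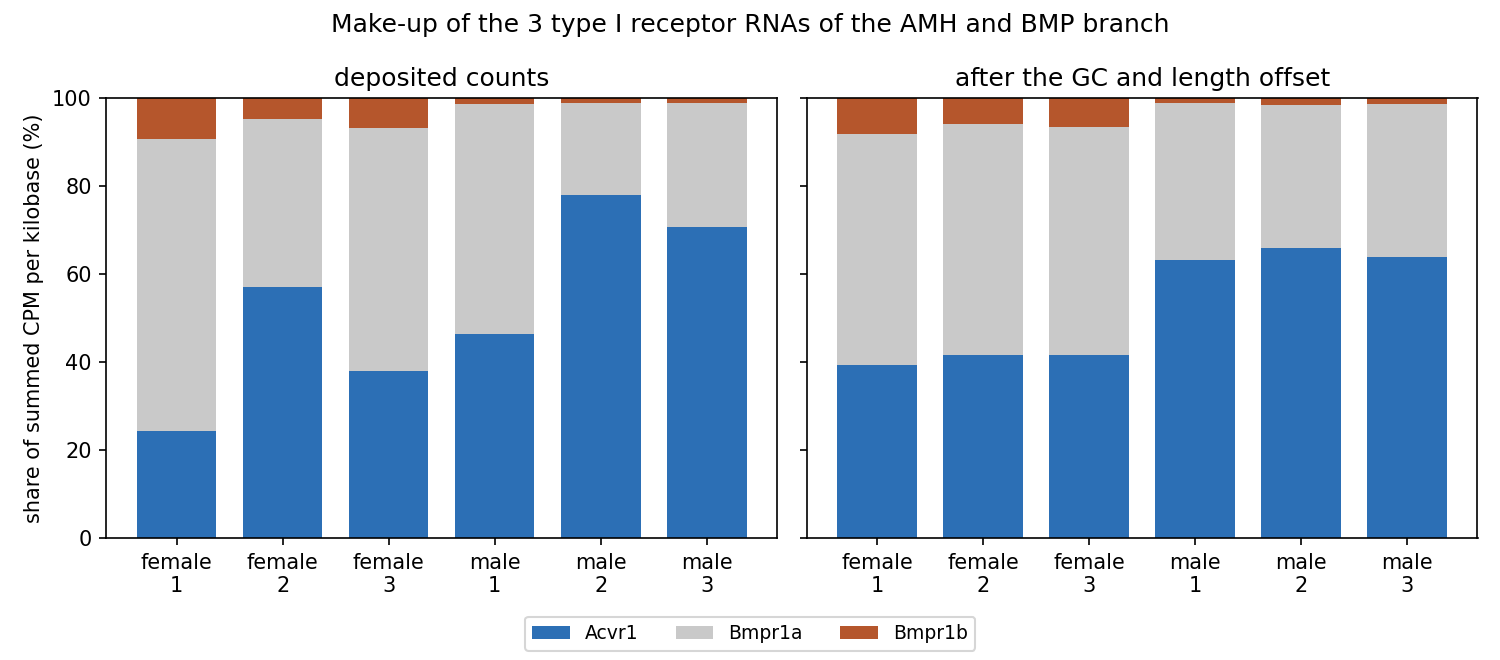
Share of Acvr1, Bmpr1a and Bmpr1b in the summed CPM per kilobase of these 3 genes (vertical, percent) in each library. Values are from the deposited counts and after the GC and length offset, both with the longest transcript as the length. After the offset Acvr1 holds 39.3% to 41.6% in females and 63.1% to 65.9% in male libraries.

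The genes most like Amhr2 over the 6 libraries, by Pearson r of log2 CPM among 9937 genes with a mean of at least 10 CPM, were Mfap4 (r = 0.999), Crmp1 (0.998), Fbxo7 (0.998), Cygb (0.997) and Nsg1 (0.997). They shared with Amhr2 the order of all 6 libraries, highest in female replicate 2 and lowest in male replicate 1. With the GC and length offset r was 0.990 for Crmp1, 0.901 to 0.912 for Mfap4, Cygb and Nsg1, and 0.053 for Fbxo7. All values rest on 6 libraries that share their composition trend and are given as a description.

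Around the receptors, 8 of 57 other pathway genes tested passed in edgeR, 7 higher and 1 lower in male. Without female replicate 1, 2 or 3 there were 2, 1 and 0. Without male replicate 1, 2 or 3 there were 11, 1 and 0. With DESeq2 there were 16, against 5.06% of all genes, and with the GC and length offset 19, against 5.94%. All of these counts describe lists chosen with earlier results of these data known. Median log2 fold changes are given below beside -0.05 for the 10 receptors and -0.01 for all genes tested, with percent called in all genes of 0.841% for higher and 0.387% for lower in male. Among 10 tested ligands of the AMH and BMP branch 1 rose and 1 fell (median 0.18). Amh stood at 0.653 ± 0.090 CPM in females and 17.2 ± 8.24 CPM in males (log2 fold change 4.71, SE 0.54, adjusted p = 0.019). On the list of 9 Sertoli cell genes, which includes Amh, Sox9 and Cst9 rose too, while Nr5a1 (-0.16), Gata4 (-0.03) and Ptgds (0.21) had values near 0 and Cst8 had -2.19, none of which passed. Bmp7, a ligand that can signal through Acvr1 and Bmpr1b, went from 120.3 ± 15.96 to 16.99 ± 4.85 CPM (-2.82, SE 0.37, adjusted p = 0.025). Among 7 tested ligands of the TGF-beta and activin branch none passed (median 0.43), and Tgfb1, with the smallest p, stood at 7.06 ± 4.16 and 86.6 ± 43.1 CPM (3.62, adjusted p = 0.064).

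Of 6 tested co-receptors and related receptors none passed (median -0.09). Rgmb, a BMP co-receptor, came closest (log2 fold change -1.42, adjusted p = 0.113 by edgeR). Acvr1c, with 11 female and 7 male counts, was not tested. Of 10 SMAD and receptor ubiquitin ligase genes 1 passed (median -0.11): Smad9, a SMAD of the AMH and BMP branch, rose from 2.74 ± 1.05 to 38.3 ± 16.1 CPM (3.80, SE 0.53, adjusted p = 0.031). Smad5 and Smad1, of the same branch, had lower means in males and did not pass. Smad5, far more abundant, went from 793.6 ± 345.5 to 318.3 ± 156.1 CPM (-1.32, edgeR adjusted p = 0.530). With the offset Smad5 was called lower (-1.04, edgeR adjusted p = 0.0397). Smad1 went from 63.1 ± 11.1 to 49.1 ± 0.656 CPM (-0.36). Of 9 tested extracellular antagonists 1 rose, the BMP-binding protein gene Bmper, from 3.56 ± 0.359 to 20.04 ± 3.54 CPM, and the median was 0.62.

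Among 13 genes that BMP signals commonly induce, 4 rose, none fell and the median log2 fold change was 2.49. The list was chosen with earlier results of these data known, so its counts are a description and no test of enrichment. DESeq2 called 9 of the 13 higher, against 444 of all 15227 genes tested. With the GC and length offset edgeR called 8 higher, against 3.02% of all genes. Of the 4, Msx2 passed in 4 of the 6 fits with 1 library left out, and Id4, Hey1 and Bmper only in that without male replicate 1. Msx2, a homeobox gene, went from 2.37 ± 0.683 to 209.6 ± 50.7 CPM, a log2 fold change of 6.47 (adjusted p = 0.0091 by edgeR). Id4, an inhibitor of helix-loop-helix factors, went from 4.38 ± 0.894 to 31.8 ± 10.2 CPM (2.86), and Hey1, a transcriptional repressor, from 3.47 ± 0.782 to 21.2 ± 3.08 CPM (2.61). Bmper, with 2.49, is on this list too. Also on it are Id1 (-0.31), the 1 member with a negative value, Id2 (0.57) and Id3 (0.77). These Id genes passed in none of edgeR, DESeq2 and edgeR with the offset. Of 9 genes that TGF-beta commonly induces 1 rose (median 0.14), the latent TGF-beta binding protein gene Ltbp2, from 0.821 ± 0.391 to 36.6 ± 1.78 CPM. DESeq2 called 3 of these 9 higher, edgeR with the offset also 3, and neither called any lower. Fold changes of the 10 receptors ran from -2.02 to 1.56, and those of the tested ligands, 10 and 7 on their lists, from -2.82 to 4.71. The upper end is Amh, which is also on the Sertoli cell list. More genes tend to give a wider range, so these ranges are a description. Whether receptor and downstream changes are linked was not tested.

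**Figure D5:**
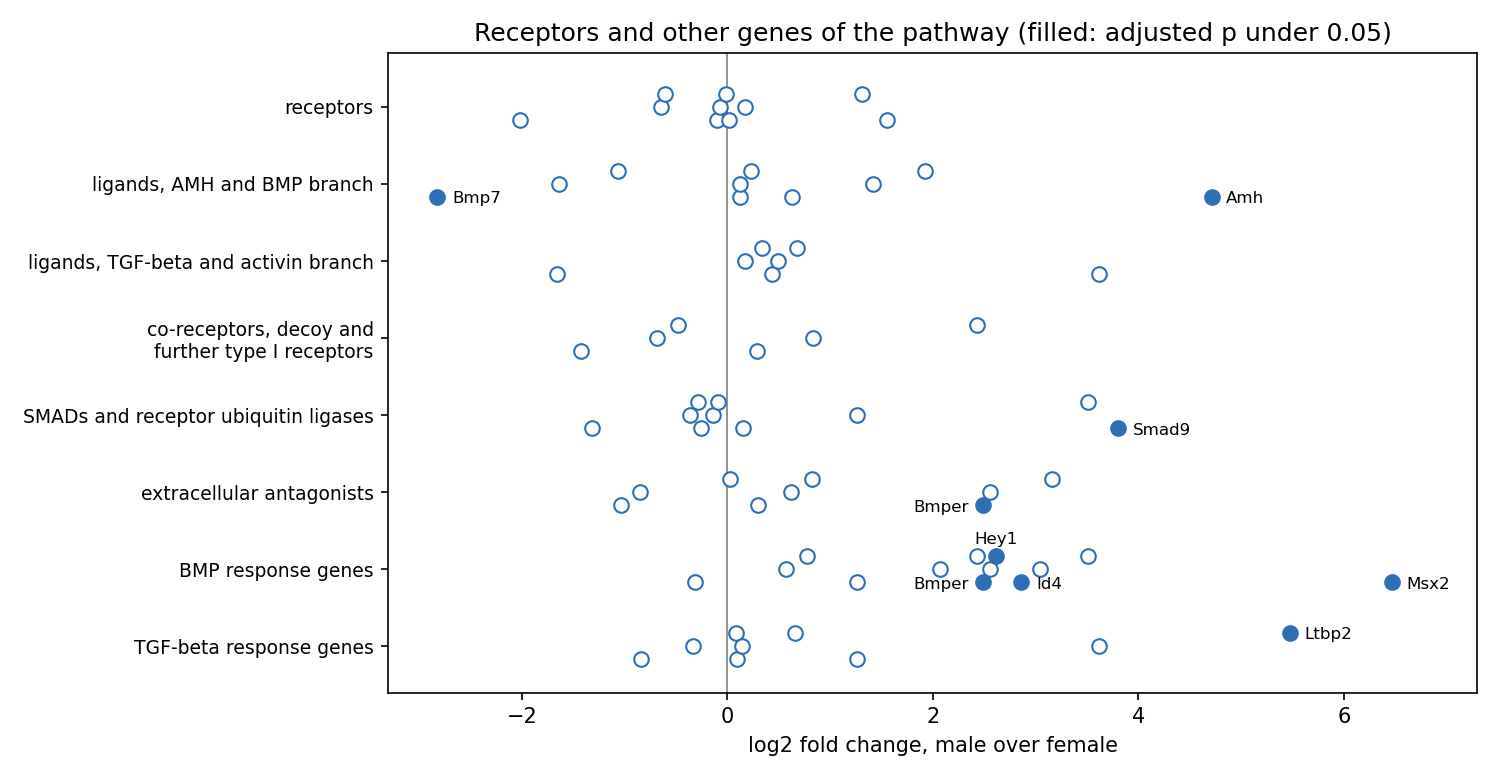
log2 fold change, male over female (horizontal), of every tested receptor and pathway gene by list; filled points passed an adjusted p of 0.05 in edgeR over all genes. No receptor point is filled, and the BMP response genes lie mostly to the right of 0.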

How the data were processed

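Each deposited file holds raw counts of 1 library by Ensembl gene; its 5 closing summary lines were left out. Per the labels' protocols, TruSeq v2 libraries were made from at least 100 ng of pooled RNA and sequenced as paired 76-base reads. The submitters' processing notes name TopHat, HTSeq, DESeq and the build mm9. Their roles, versions, annotation release and strand setting were not given in the sources used here, so reads of overlapping antisense genes cannot be told apart. Ambiguous counts, shared between genes, were 6.51% to 10.0% of uniquely placed counts. The labels call the replicates biological; p-values measure the spread between these pools.

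Symbols, transcript length and GC content came from GENCODE M21 (GRCm38), which differs from mm9; coordinates are those of RefSeq on GRCm38.p6. Of 37991 identifiers 32919 had a symbol, and 96.4% of tested genes had a GC value. In R 4.3.3, filterByExpr kept 15227 genes, TMM set the scaling, and edgeR 4.0.16 gave a two-sided robust quasi-likelihood test of sex, adjusted by Benjamini-Hochberg over all genes (threshold 0.05). Standard errors are the size of the log2 fold change divided by the root of F, and intervals use the test's degrees of freedom. The offset used splines with 5 degrees of freedom on GC content and log length, fitted per library to deviations from gene means (log2 CPM, prior count 2). Alternatives were other scalings and filters, DESeq2 1.42.0, limma-voom (limma 3.58.1), another threshold, a replicate block, and omission of libraries. The scripts were tested on simulated data. Members, lists and tests were chosen with earlier results of these data known. All members were named, and in each list the 4 called genes lowest in adjusted p at most, or, with none called, the gene lowest in p, the 5 genes most like Amhr2 and the reference neighbours of Amhr2.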

Additional observations from a re-analysis of the deposited data

How the results depend on the processing

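In edgeR 187 genes were called, 0 receptors and 8 other pathway genes. Other scalings, other filters, limma-voom and edgeR without robust fitting called no receptor. DESeq2 called 771 genes, 2 receptors and 16 pathway genes; the GC and length offset 905, 4 and 19; a threshold of 0.1 386 genes. Leaving out 1 library called 0 to 173 genes, 0 receptors and 0 to 11 pathway genes; omitting both sexes' libraries of 1 number called 0 to 354, 0 and 0 to 15, the highest of these without replicate 1; the cause was not tested. Without female or male replicate 3, where edgeR called 0 genes, 884 and 938 had an unadjusted p under 0.05; without both libraries of replicate 2 or 3 there were 1103 and 455.

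The labels do not say what a replicate number marks, so the main fit did not pair libraries by number. Deviations from the group mean correlated over genes at 0.93, 0.85 and -0.07 for numbers 1, 2 and 3. Male replicate 3 correlated best with female replicate 2 (0.59). The 3 deviations of a sex depend on one another, so these values cannot decide whether libraries of a number were paired. With a replicate block 4164 genes, 5 receptors (Amhr2, Acvr1, Acvrl1, Bmpr1b and Acvr2b) and 33 pathway genes were called; with block and offset 4418, 5 (Tgfbr1 in place of Acvr2b) and 36.

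Directions turned for members near 0, for which the cause was not tested. Acvr2a was -0.029 by library size, -0.0058 with no filter, -0.13 by limma-voom and -0.12 with the block. With the offset Bmpr1a, Bmpr2 and Tgfbr2 were 0.082, 0.17 and 0.068, and with block and offset 0.084, 0.10 and 0.094. Without replicate 1 of both sexes Acvr2a was -0.35 and Tgfbr1 -0.23; without replicate 3 of both Bmpr1a, Bmpr2 and Tgfbr2 were 0.077, 0.32 and 0.021. Prr13 was -0.0047 (without female replicate 1) to 0.54 with 1 library left out. Leaving out 1 library, or both of a number, gave -0.93 to 0.43 for Bmpr1a, -1.45 to 0.74 for Bmpr2, -1.03 to 0.70 for Acvr2a, -0.77 to 0.72 for Tgfbr1 and -0.23 to 0.02 for Tgfbr2. Amhr2, Acvr1, Acvrl1, Bmpr1b and Acvr2b kept their direction in all 21 alternatives; their ranges were -0.97 to -0.24, 1.23 to 1.37, 1.198 to 1.95, -2.47 to -1.40 and -0.94 to -0.32. With mean transcript lengths Amhr2 led in 6 of 6 libraries, but male Acvr1 was no longer second on average.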

Other observations

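Sp7, the gene of osterix, and Amhr2 are close neighbours in the reference, on opposite strands with Sp1 between them. Sp7 rose from 29.0 ± 2.47 to 228.2 ± 49.4 CPM in males (SD, n = 3 each; log2 fold change 2.97, SE 0.34, edgeR adjusted p = 0.018). With 1 library left out it passed only without male replicate 1 (log2 fold change 2.81 to 3.11 over the 6 fits). Sp1, next to Amhr2, stood at 191.3 ± 78.4 and 139.2 ± 70.0 CPM, and Prr13 and Pcbp2 on the other side at 20.6 ± 7.55 and 23.96 ± 8.30 CPM and at 360.5 ± 89.1 and 313.2 ± 60.1 CPM. None of these 3 passed. Beside Tgfbr1, Col15a1, a collagen gene singled out after its values were seen, rose from 6.54 ± 0.346 to 148.5 ± 20.02 CPM (4.50, SE 0.34, edgeR adjusted p = 0.010), and passed in 3 of the 6 fits with 1 library left out, those without female replicate 1, male replicate 1 or male replicate 2. Antisense genes inside 2 members had few counts. Gm16031, which shares 127 exon bases with Acvrl1, had 8 in all, and Gm17110, which shares 290 with Bmpr1a, had 73. Reads in the shared bases may lie among the ambiguous counts, so these counts cannot show how many there were. Orc4, which shares 446 exon bases with Acvr2a on the opposite strand, ranged from 11.4 to 83.0 CPM and followed the order of the replicates seen in Acvr2a in both sexes.

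Of the 9 tested Sertoli cell genes 3 rose in males, Amh, Sox9 and Cst9, against 0.841% of all genes (edgeR). This list too was chosen with earlier results known, so the count is a description. With 1 library left out, each of the 3 passed only without male replicate 1. Of the other 6, Cst8 (log2 fold change -2.19), Nr5a1 (-0.16) and Gata4 (-0.03) had negative values and Ptgds (0.21), Aard (1.07) and Dhh (5.95, adjusted p = 0.052, on 4 female and 255 male counts) positive ones. Sox9 went from 7.74 ± 0.880 to 45.2 ± 13.5 CPM, and Cst9 held 2 female and 206 male counts. Epcam, whose protein joins epithelial cells, fell in males from 13.7 ± 3.08 to 2.58 ± 0.477 CPM, the 1 of 7 tested duct epithelium genes that passed (edgeR; 0.387% of all genes were lower). It passed in none of the 6 fits with 1 library left out (adjusted p 0.074 to 0.270). No tested mesothelium, pregranulosa, fetal Leydig, blood or mesenchyme marker passed in edgeR. The smallest p in each list belonged to Irx3 among pregranulosa genes (log2 fold change -3.73, adjusted p = 0.058), Hoxa10 among mesenchyme genes (-1.16, adjusted p = 0.209), Lrrn4 among mesothelium genes (-0.84), Hsd3b1 among fetal Leydig cell genes (-1.54) and Cd68 among blood cell genes (0.65).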
